A study of Mus musculus with 2 samples.

Results

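Interferon-stimulated antiviral effectors were followed in bone marrow mononuclear cells of C57/Bl6J mice cultured with the herbal drug ninjin'yoeito (NYT) or without it. The set holds 36 genes, chosen by name as antiviral effectors, sensors and relatives that interferon induces, out of 30163 genes named on the arrays. All 36 had at least 1 probe, with 47 probes in all. The NYT group was 1 culture given the drug and the control group was 1 untreated culture, the negative control. In both, femoral marrow of mice 2 to 4 months old was flushed with medium holding 2% fetal bovine serum, mononuclear cells were cultured, and RNA was collected at day 11. Each group had 1 one-colour Agilent array, so no p-value was computed and every difference below is one between 2 arrays. The sources used here give neither the dose of the drug nor which animals each culture came from.

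Interferons are secreted proteins that put cells into an antiviral state. Type I interferons act through the receptor chains Ifnar1 and Ifnar2, and the signal reaches a promoter element called the interferon-stimulated response element (ISRE). Interferon gamma, made mainly by natural killer and T cells, acts mainly through another element, the gamma-activated sequence (GAS). The induced genes encode sensors of foreign nucleic acid, enzymes that block viral RNA or protein synthesis, membrane proteins that trap or exclude virions, and GTPases that attack the compartments of intracellular microbes. Many are also expressed at a low level in unstimulated blood-forming and myeloid cells.

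The set was lower on the NYT array, but unevenly within nearly every family. Of 34 genes measured on both arrays, 11 (32.4%) were lower on the NYT array by 2-fold or more, against 11.0% of all 16996 measured genes. None was at least 2-fold higher by its brightest probe, against 11.2% of all measured genes. The other 2 of the 36 genes, Slfn1 and Slfn4, were well above background on the control array alone. So were 1855 of all 30163 named genes, a similar share. The lower genes were Ifitm1, Ifi44, Ifi27l2a, Mx1, Igtp, Ifit3, Ifit2, Ifi47, Zbp1, Oas2 and Rtp4. By their brightest probes, Usp18, Oas1a, Rsad2, Slfn5 and Bst2 stood highest, between 0.61 and 0.79 on the log2 scale. By those probes all 5 lay below 0 when the arrays were left unscaled or were scaled on spike-in RNA. The other probe of Slfn5 stood at 2.88.

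The median log2 difference, NYT minus control, was -0.64 over the 34 measured genes and 0.29 over all measured genes. With Slfn1 and Slfn4 placed at their bounds the median was -0.68. Below 0 lay 27 of the 34 (79.4%), against 35.5% of all measured genes. The same 28 of the 34 lay below the median of all genes under each of 12 processing settings, and the same 11 were at least 2-fold lower in all 12. Leaving the arrays unscaled moved the median of all genes to -0.73 and placed 27 of the 34 at least 2-fold lower, against 36.4% of all genes. Spike-in scaling, which rests on 8 spike-in probes with unscaled log2 differences from -0.12 to 2.25 (median 0.16), moved it to -0.89. It also placed 27 there, against 44.0%. By their brightest probes, the 7 genes above 0 lay below 0 under both.

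**Figure D1:**
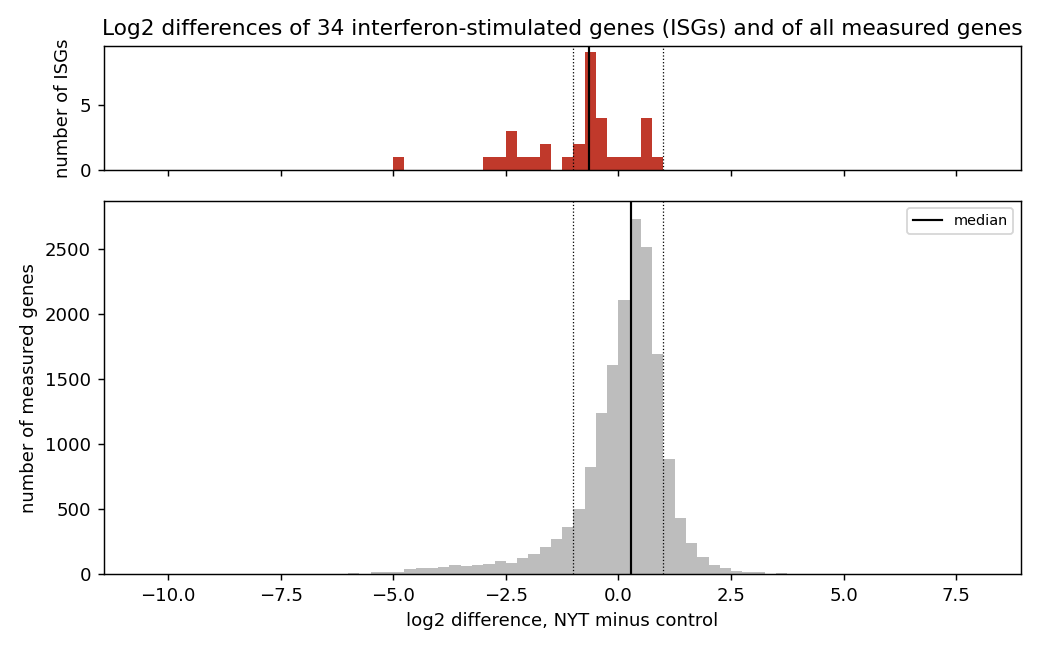
Histograms of the log2 difference, NYT minus control (horizontal axis), for the 34 measured interferon-stimulated genes (upper panel) and for all 16996 measured genes (lower panel), in bins of equal width. Solid lines are the medians, -0.64 and 0.29, and dotted lines mark 2-fold. The upper panel has a tail to the left and no gene past the right dotted line.

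Relative intensity below is a probe's processed intensity divided by the 75th percentile of its own array, 728 on the NYT array and 1476 on the control array. It compares the arrays for 1 probe and does not rank genes. Well above background were 57.7% of probes on the NYT array and 62.2% on the control array. Spot noise gave the only error, a median SD of 0.046 on the log2 scale for a difference, over 247 probes printed 10 times. That error covers neither cultures nor hybridisations. In such bulk RNA, fewer cells of a type and less RNA per cell cannot be told apart.

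**Figure D2:**
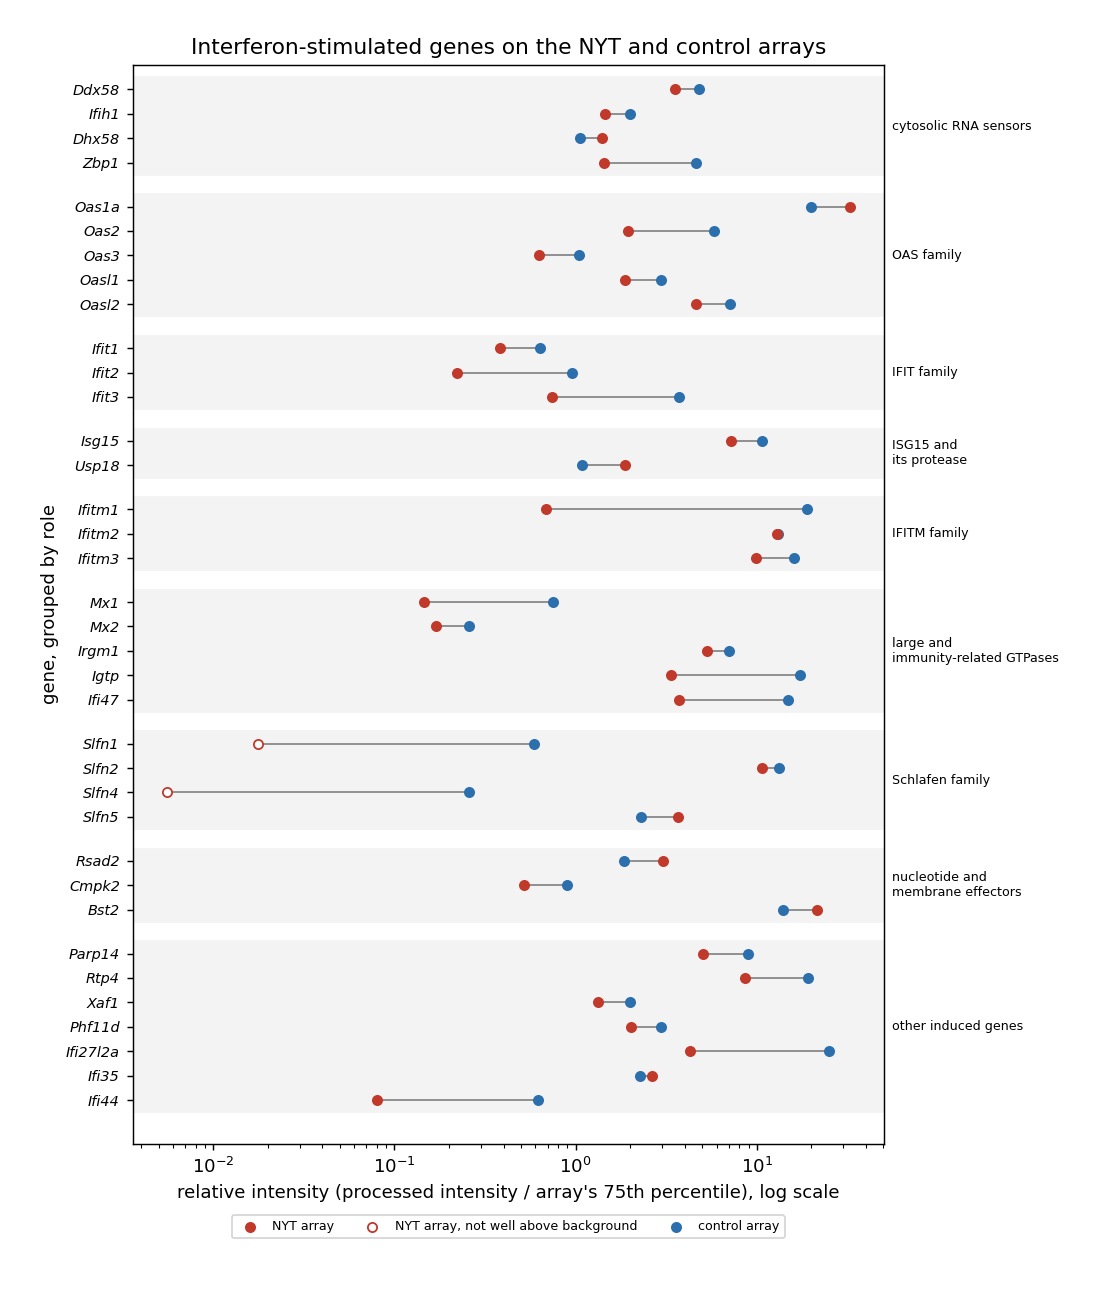
Relative intensity on a log axis for each of the 36 genes, grouped by role, with the NYT array in red and the control array in blue, joined by a line. Points should be compared within a gene only. Open points mark Slfn1 and Slfn4, not well above background on the NYT array, and the longest gap among measured genes is that of Ifitm1, 0.683 on the NYT array and 18.9 on the control array.

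Promoter stretches of 9 of the genes show the element that most of these families share. They are printed because genes with it had log2 differences of unlike size. They are RefSeq sequences (GRCm38.p6), 5′ to 3′ on the gene's strand, and capitals mark matches to the core of the ISRE on either strand, which is GAAA, any 2 bases and GAAA again (on the opposite strand TTTC, any 2 bases and TTTC). Overlapping matches run together.
Ifit1: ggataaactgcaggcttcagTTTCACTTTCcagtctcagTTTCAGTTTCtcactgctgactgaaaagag
Ifit3: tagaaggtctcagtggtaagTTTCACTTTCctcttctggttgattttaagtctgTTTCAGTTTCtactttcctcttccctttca
Irgm1: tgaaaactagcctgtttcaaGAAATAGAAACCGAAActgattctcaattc
Igtp: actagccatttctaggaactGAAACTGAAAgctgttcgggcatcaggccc
Oas1a: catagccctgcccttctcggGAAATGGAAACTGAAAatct
Oas3: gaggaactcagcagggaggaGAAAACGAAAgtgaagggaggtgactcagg
Isg15: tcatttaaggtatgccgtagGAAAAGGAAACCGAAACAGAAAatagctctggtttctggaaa
Rsad2: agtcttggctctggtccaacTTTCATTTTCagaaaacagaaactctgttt
Bst2: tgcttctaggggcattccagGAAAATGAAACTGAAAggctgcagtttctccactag

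The stretches lie at chr19:34640765-34640833 (Ifit1, plus strand), chr19:34583353-34583436 (Ifit3, plus), chr11:48871421-48871470 (Irgm1, minus), chr11:58199502-58199551 (Igtp, plus) and chr5:120907526-120907565 (Oas1a, minus). Those of Oas3, Isg15, Rsad2 and Bst2 lie on the minus strand at chr5:120777705-120777754, chr4:156200855-156200916, chr12:26456543-26456592 and chr8:71537567-71537622. All end before the gene's start.

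Searched from 250 bases before to 50 after the start, on both strands, this core was present in 14 of the 27 genes with a promoter in the table (51.9%), against 3.99% of 27025 genes. A longer form, the core followed directly by CT, was present in 7 (25.9%), against 0.303%. TTCNNNGAA, the core of the GAS, was present in 6 (22.2%), against 9.55%. Its match in Igtp lies within the printed stretch, from position -45 to -37 relative to the start, and that in Bst2 overlaps its first ISRE match.

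The ISRE core was found both in genes that were lower and in genes that were not. It was present in 2 of the 6 genes at least 2-fold lower that had a promoter in the table (Ifit3 and Igtp). Among those under 2-fold it was present in 12 of 19, and it was in neither Slfn1 nor Slfn4. Coverage was unequal, since 6 of the 11 lower genes had a promoter in the table and 19 of the 23 under 2-fold. Measured genes with the core had a median log2 difference of -0.45 (14 genes, from -2.36 to 0.71), and those without it -0.65 (11 genes). This is a count of letters in a short window, with no test, and elements outside the window were not searched.

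Sensors of nucleic acid in the cytosol differed by less than 2-fold by their brightest probes, apart from Zbp1. Ddx58 (RIG-I), which detects RNA with triphosphate ends, had a relative intensity of 3.52 on the NYT array and 4.82 on the control array, a log2 difference of -0.45. Its other, dimmer probe stood at -1.02. Ifih1 (MDA5), which detects long double-stranded RNA, had 1.45 on the NYT array and 1.99 on the control array (-0.46). Dhx58 (LGP2), a helicase that regulates both, had 1.39 on the NYT array and 1.05 on the control array (0.41, but -0.61 unscaled and -0.77 after spike-in scaling). Zbp1, which binds Z-form nucleic acid and can start necroptosis, had 1.43 on the NYT array and 4.64 on the control array, 3.24-fold lower. By its other probe Zbp1 differed by -2.68, so both probes placed it past 2-fold.

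The 2′-5′-oligoadenylate synthetases make a messenger that switches on RNase L, which degrades RNA. Oas2 had a relative intensity of 1.95 on the NYT array and 5.80 on the control array, 2.98-fold lower. Oas3 had 0.628 on the NYT array and 1.04 on the control array, a log2 difference of -0.73, and its probe lies close to that of Oas2 on chromosome 5 (mm9). The ubiquitin-like relatives Oasl1 and Oasl2 were nearly alike, at -0.65 and -0.63. Oas1a went the other way, with 32.6 on the NYT array and 19.97 on the control array (0.71, and 0.58 by its other probe), but it lay at -0.31 unscaled and -0.47 after spike-in scaling. Thus 4 of the 5 synthetase genes lay below 0 and 1 was at least 2-fold lower, against 35.5% and 11.0% of all measured genes. Oas1a has near-identical copies, so its own value is uncertain.

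Ifit proteins bind viral RNA that lacks the host's cap marks and hold it out of translation. Ifit3 had a relative intensity of 0.737 on the NYT array and 3.72 on the control array, 5.04-fold lower. Ifit2 had 0.222 on the NYT array and 0.950 on the control array, 4.28-fold lower. Ifit1, the member that recognises the cap, had 0.385 on the NYT array and 0.632 on the control array, a log2 difference of only -0.72. The probes of all 3 lie in 1 cluster on chromosome 19 (mm9), at 34650244 for Ifit2, 34663105 for Ifit3 and 34723796 for Ifit1. Both Ifit1 and Ifit3 carry a pair of ISRE matches before their starts, in the stretches printed above. Ifit3b, a near-identical copy of Ifit3 outside the set, differed by -2.99, and signals of the copies cannot be separated with certainty.

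Isg15 is a ubiquitin-like protein that is attached to viral and host proteins, and Usp18 is the protease that removes it and also restrains the type I interferon receptor. Isg15 had a relative intensity of 7.21 on the NYT array and 10.702 on the control array, a log2 difference of -0.57, with -0.59 by its second probe. Usp18 had 1.87 on the NYT array and 1.08 on the control array, a difference of 0.79 and the highest of the set by brightest probe, although it lay at -0.23 unscaled and -0.39 after spike-in scaling. Neither passed 2-fold. Relative to the median of all genes, Isg15 lay below and Usp18 above under all 12 settings.

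The interferon-induced transmembrane proteins, which keep viruses from fusing with cell membranes, had the widest spread of any family among genes measured on both arrays. Ifitm1 had a relative intensity of 0.683 on the NYT array and 18.9 on the control array, 27.6-fold lower and within the lowest 0.40% of all measured genes. Its second probe gave 0.625 on the NYT array and 17.9 on the control array, so both probes differed by nearly the same amount, -4.79 and -4.84. The first probe lies on chromosome 7 at 148155659 to 148155718, plus strand, and the second was placed by the array design on chromosome 8 at 13896764 to 13896823, plus strand (mm9), away from the gene. Ifitm2, whose probe starts at 148140881 on chromosome 7, had 12.97 on the NYT array and 13.04 on the control array (-0.01). Ifitm3, the member best known for restricting influenza virus, averaged 9.91 ± 0.310 on the NYT array and 16.1 ± 0.747 on the control array (SD over 10 spots of 1 array each). Its difference was -0.70 ± 0.05 over those spots, far less than that of Ifitm1.

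Among the GTPases, Mx1 had a relative intensity of 0.145 on the NYT array and 0.751 on the control array, 5.17-fold lower. Mx proteins trap viral nucleocapsids, but C57BL/6 mice carry a defective Mx1 allele, so its transcript is no measure of a working protein. Mx2 had 0.170 on the NYT array and 0.259 on the control array (-0.60). Mx1 and Mx2 were among the dimmer probes, and with normexp background correction they stood at -1.87 and -0.24.

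The immunity-related GTPases act on vacuoles that hold intracellular microbes and are induced strongly by interferon gamma. Igtp (Irgm3) had 3.38 on the NYT array and 17.4 on the control array, 5.15-fold lower. Over the 8 spots kept on both arrays its difference was -2.36 ± 0.05 (SD), and the lowest control spot, 16.8, lay well above the highest NYT spot, 3.57. Ifi47 (Irgd) had 3.73 on the NYT array and 14.9 on the control array, 4.00-fold lower. Irgm1, a regulator of the other members, had 5.31 on the NYT array and 7.01 on the control array, a log2 difference of -0.40, and -0.44 by its second probe. Igtp and Irgm1 thus had log2 differences of unlike size, although both carry the ISRE core close to their starts.

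Schlafen genes are known for roles in lymphocyte quiescence and myeloid differentiation. Slfn1 was not well above background on the NYT array (0.0176) and had a relative intensity of 0.589 on the control array, at least 22.4-fold lower. Slfn4, studied mainly in myeloid cells, was likewise not well above background on the NYT array (0.00553) and had 0.258 on the control array, at least 9.79-fold lower. Each bound sets the control value against the lowest NYT signal that was well above background. Among all genes detected on the control array alone, 39.4% had a bound of 2-fold or more. Slfn2, whose loss in mice breaks T cell quiescence, had 10.66 on the NYT array and 13.2 on the control array (-0.31). Slfn5 had 3.66 on the NYT array and 2.30 on the control array by its brightest probe (0.67, but -0.35 unscaled and -0.51 after spike-in scaling). The other probe of Slfn5 gave 0.725 on the NYT array and 0.0986 on the control array, a difference of 2.88. Its unscaled intensity was also higher on the NYT array, 528 against 145 on the control array. That probe was named by its RefSeq transcript and the brightest by symbol. The size of the Slfn5 difference thus depends on the probe, and with unscaled arrays so does its sign. The probes of these 4 genes lie on chromosome 11 between 82765536 and 83003033 (mm9).

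Rsad2 (viperin), which makes a chain-terminating nucleotide, had a relative intensity of 3.02 on the NYT array and 1.85 on the control array (0.70). Cmpk2, a nucleotide kinase whose gene adjoins Rsad2, had 0.519 on the NYT array and 0.901 on the control array (-0.80), with -0.42 by its second probe. Bst2 (tetherin), which tethers budding virions to the cell surface, had 21.4 on the NYT array and 14.0 on the control array (0.61). None of these passed 2-fold, and Rsad2 and Bst2 lay at -0.31 and -0.40 unscaled and at -0.48 and -0.56 after spike-in scaling.

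Of the remaining 7 genes, 3 were at least 2-fold lower, against 11.0% of all measured genes. Ifi44 had a relative intensity of 0.0805 on the NYT array and 0.616 on the control array, 7.65-fold lower, or -1.95 on the log2 scale after normexp background correction. Ifi27l2a, a small membrane protein, had 4.26 on the NYT array and 24.9 on the control array, 5.85-fold lower. Rtp4, a chaperone of G protein-coupled receptors, had 8.64 on the NYT array and 19.2 on the control array, 2.22-fold lower and nearest to the threshold among the 11. Parp14, an ADP-ribosyltransferase and the nearest gene outside it, had 5.04 on the NYT array and 8.97 on the control array (-0.83). Xaf1, which promotes apoptosis, and Phf11d, a PHD finger protein, stood at -0.58 and -0.53. Ifi35 had 2.63 on the NYT array and 2.26 on the control array (0.22, but -0.05 after loess, -0.80 unscaled and -0.96 after spike-in scaling).

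**Figure D3:**
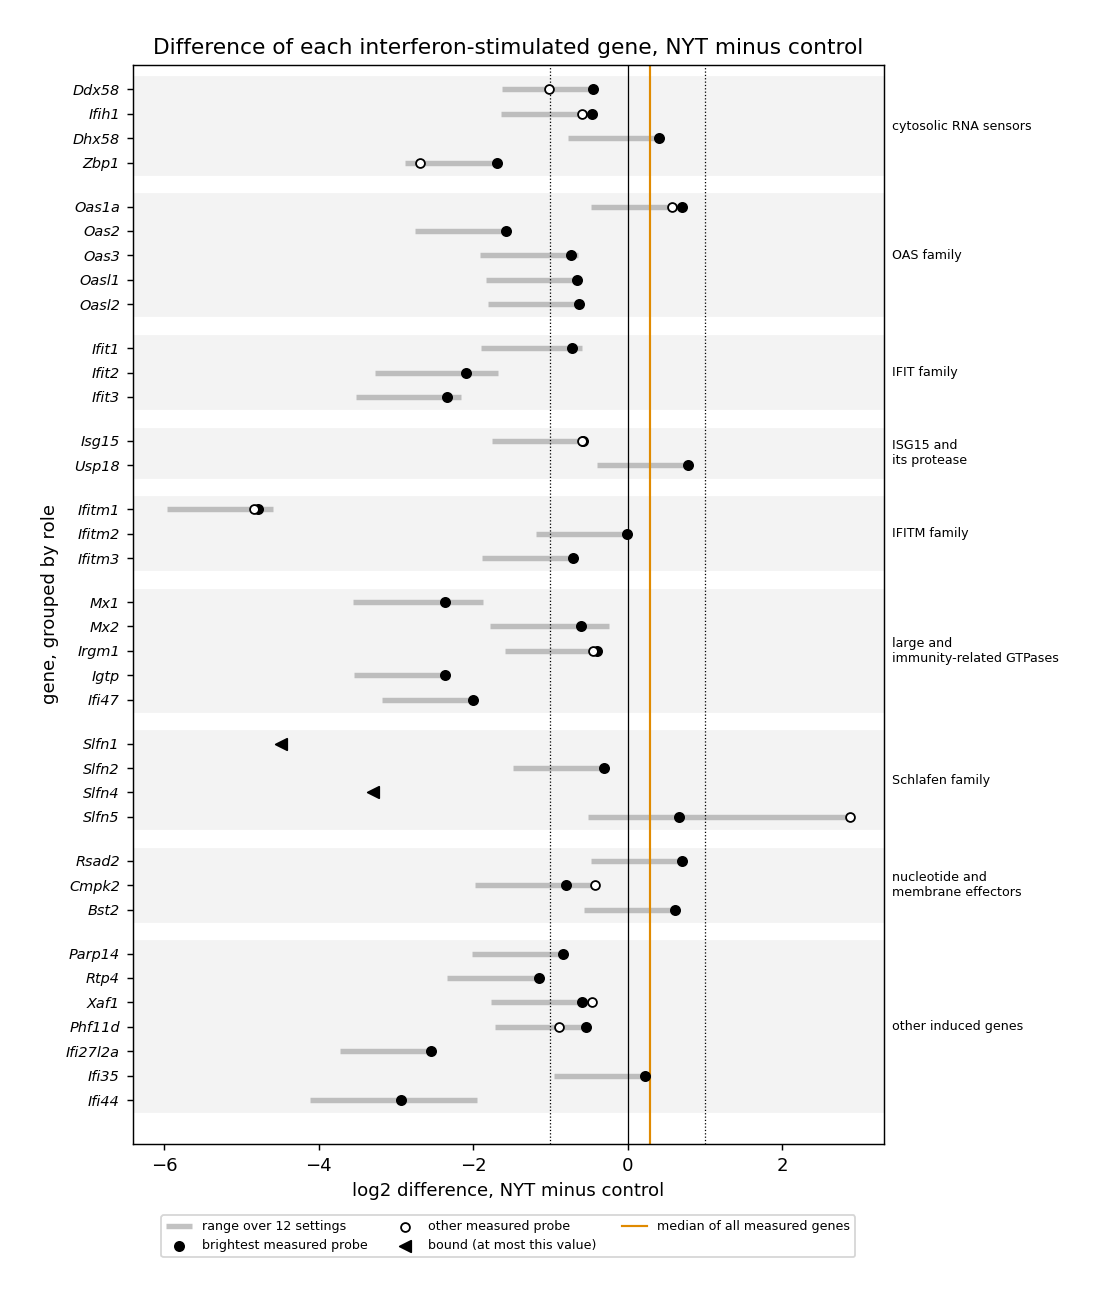
Log2 difference, NYT minus control, of each gene by its brightest measured probe (filled points) and by other measured probes (open points), with grey bars for the range over 12 processing settings and triangles for the bounds of Slfn1 and Slfn4. Dotted lines mark 2-fold and the orange line the median of all measured genes, 0.29. Slfn5 is the only gene with a probe past the right dotted line, at 2.88, and the bars of the 7 genes above 0 all extend below 0, where unscaled arrays and spike-in scaling place them.

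Of the 34 measured genes, 11 had more than 1 probe well above background on both arrays. As scaled here, the probes of each of these had the same sign. Between probes, the gap was widest for Slfn5 at 2.21, followed by Zbp1 at 0.99 and Ddx58 at 0.57, and under 0.40 for the others.

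Other genes of the pathway were described from lists that share some genes with the set. As scaled here, their counts stand against 11.0% of all measured genes lower and 11.2% higher. Leaving the arrays unscaled or scaling on spike-in RNA raised the counts of lower genes in every one of these lists. Counts of lower genes under those 2 settings stand against 36.4% and 44.0% of all genes, and those after loess against 14.0%. The relay from receptor to nucleus lay below 0 throughout, 11 of 11 genes under all 12 settings, with a median of -0.76 and 4 at least 2-fold lower (3 after normexp background correction, and all 11 with unscaled arrays or spike-in scaling). Irf1, a factor induced by interferon gamma, had a relative intensity of 4.09 on the NYT array and 26.2 on the control array (-2.68). Irf7, the amplifier of type I interferon production, had 0.360 on the NYT array and 1.29 on the control array (-1.84). Jak2, a kinase of the interferon gamma receptor, stood at -1.20, whereas Irf9, a DNA-binding factor of the type I response, stood at -0.17.

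Receptors were measured in 6 of 6 cases and had a median of 0.26, close to that of all genes, but -0.16 after loess and -0.76 unscaled. Ifnlr1, the receptor for interferon lambda, had 0.134 on the NYT array and 1.32 on the control array (-3.30). Il10rb, a chain shared with the interleukin-10 receptor, stood at 0.73. Ifnar1 and Ifnar2 stood at -0.02 and 0.38, and Ifngr1 and Ifngr2 at 0.13 and 0.47. Of the 6 receptors 1 was thus at least 2-fold lower, against 2 with unscaled arrays and 3 after spike-in scaling.

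Of 15 ligand genes named on the arrays, 8 were measured, with a median of 0.37 and none past 2-fold. That median was 0.67 after normexp background correction, -0.65 unscaled and -0.81 after spike-in scaling. All 8 were dim, which limits what can be said of their differences. Relative intensities ran from 0.0280 (Ifna7) to 0.117 (Ifnl3) on the NYT array. On the control array they ran from 0.0229 (Ifna11) to 0.205 (Ifnl3). With other settings up to 3 were at least 2-fold lower (spike-in scaling) and up to 1 higher (quantile normalization and the table of values the authors deposited among them). The largest differences were those of Ifna1 (0.90), Ifna11 (0.84) and Ifnl3 (-0.81), and interferon alpha genes are near-identical copies whose values are uncertain. Ifnb1 was among 6 ligand genes not well above background on either array. Ifng was not well above background on the NYT array (0.0248) and had 0.367 on the control array, at least 13.9-fold lower.

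Of 6 feedback inhibitors, 2 were at least 2-fold lower, Socs1 (-2.77) and Socs3 (-2.54), while Usp18 stood apart as given above. With unscaled arrays or spike-in scaling 5 of the 6 were lower. Of 6 genes of the ISG15 pathway, 1 was lower, Uba7, its activating enzyme, with 3.80 on the NYT array and 11.9 on the control array (-1.65), a count of 4 with unscaled arrays or spike-in scaling. Partners of nucleic acid sensing had a median of -0.08 (0.10 by the dimmest probe and -1.10 unscaled), with 1 of 12 lower, Sting1 (-1.19), a share near that of all genes, and Ticam1, the adaptor of Tlr3, at 0.96. By the dimmest probe 2 of the 12 were lower and 1 higher, and 8 were lower with unscaled arrays or spike-in scaling. The other antiviral effectors had a median of -0.48, with 5 of 21 lower and none higher. The number lower was 3 by the dimmest probe, 10 after loess (median -0.95), 18 with unscaled arrays (-1.50) and 19 after spike-in scaling. Isg20, an exonuclease, led them at -1.67, followed by Tap1, a peptide transporter, at -1.55 and Samhd1, which depletes nucleotides, at -1.39.

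Relatives of the genes in the set repeated the unevenness within families. Of 28 named on the arrays 18 were measured, 6 of them at least 2-fold lower and none higher, with a median of -0.20. With unscaled arrays 12 of the 18 were lower (median -1.22), and after spike-in scaling 13 (-1.38). Tgtp2, another immunity-related GTPase, had 0.684 on the NYT array and 18.4 on the control array (-4.75), and Ifitm6 stood at -2.92. Ifit1bl1, Ifitm10, Tgtp1 and Phf11c, detected on the control array alone, were at least 8.91-fold, 5.99-fold, 3.33-fold and 2.00-fold lower. Oas1g, detected on the NYT array alone, was at least 2.14-fold higher.

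**Figure D4:**
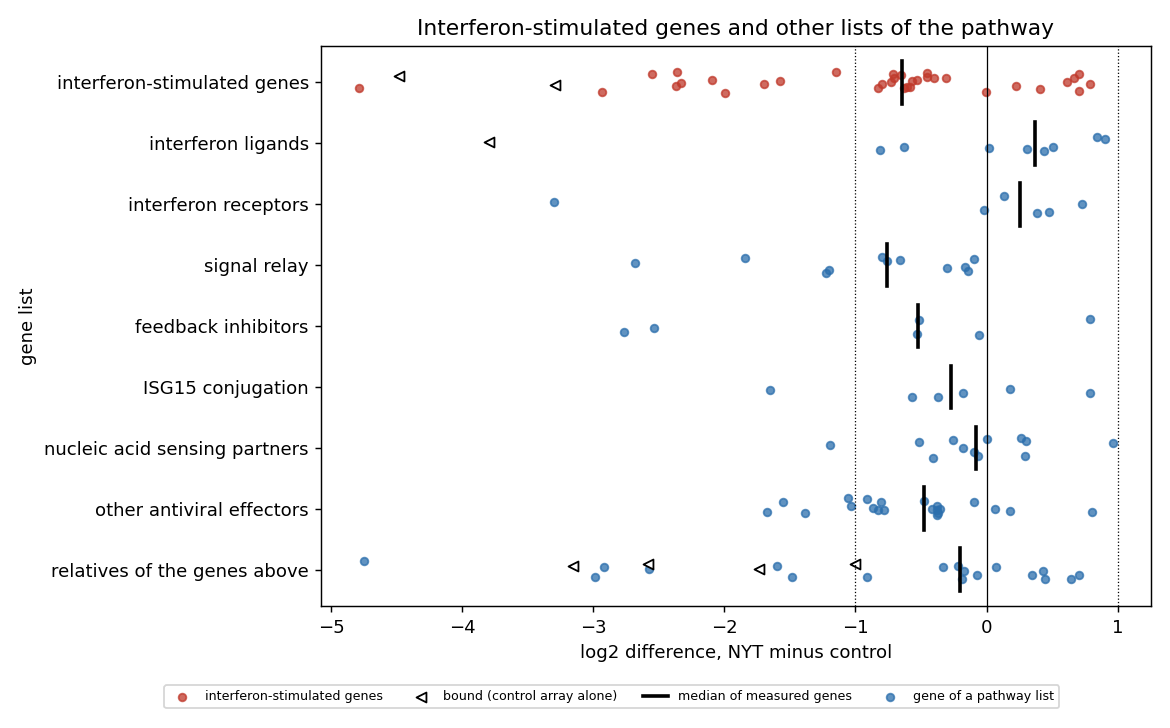
Log2 difference, NYT minus control, of the 34 measured interferon-stimulated genes (red) and of the measured genes of 8 pathway lists (blue), with a black bar for each median and open triangles for genes detected on the control array alone, at their bounds. Some genes appear in more than 1 list. Receptors and ligands have medians of 0.26 and 0.37 (-0.76 and -0.65 with the arrays unscaled), and the signal relay has a median of -0.76, the lowest of the 8 lists as scaled here, although feedback inhibitors were slightly lower with quantile normalization (-0.83 against -0.82).

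Markers of several cell types were lower on the NYT array too, and their part in the differences was not tested. Each list is given by its median log2 difference and by its summed relative intensity, and a sum over different probes is dominated by the brightest ones. The counts stand against 11.0% of all measured genes lower and 11.2% higher as scaled here. Of all 30163 named genes, 1855 were well above background on the control array alone. Summed relative intensity of 7 monocyte markers was 19.3 on the NYT array and 142 on the control array, with 6 of 7 at least 2-fold lower and a median of -4.02. For 10 neutrophil markers it was 359 on the NYT array and 823 on the control array (8 of 10 lower, median -3.27), a sum carried mostly by S100a8 and S100a9. For 10 macrophage markers it was 457 on the NYT array and 533 on the control array (5 lower, 1 higher, median -0.97). Quantile normalization placed 7 of the 10 lower and none higher (median -1.43), as did the table of values the authors deposited (-1.41). Within that list Cd68 stood at 1.18, whereas the complement genes C1qa, C1qb and C1qc stood at -5.21, -3.74 and -3.58. T cell markers summed to 6.48 on the NYT array and 17.0 on the control array, with 3 of 5 measured lower (median -1.13, or -2.63 with bounds), and Cd247, Cd8a and Tcf7 not well above background on the NYT array. Natural killer cell markers summed to 3.25 on the NYT array and 13.9 on the control array, with 1 of 2 measured lower (median -0.87, or -4.51 with bounds). The other 5 of 7, Ncr1, Klrb1c, Klrd1, Gzmb and Eomes, were not well above background on the NYT array. Plasmacytoid dendritic cells, a main source of type I interferon, had markers summing to 105 on the NYT array and 87.8 on the control array, with 1 of 8 lower and a median of 0.07 (-0.41 after loess and -0.95 unscaled), and that list includes Bst2. B cell markers summed to 48.2 on the NYT array and 51.9 on the control array, with 1 of 7 lower and a median of -0.21. The plasmacytoid dendritic cell and B cell counts were each near the share of all genes. With unscaled arrays 4 were lower in each of these 2 lists, against 36.4% of all genes. Mast cell and basophil markers summed to 0.588 on the NYT array and 32.8 on the control array, with all 4 measured lower (median -6.11) and Fcer1a and Ms4a2 not well above background on the NYT array. Erythroid markers summed to 83.9 on the NYT array and 90.9 on the control array (2 lower and 1 higher of 4 measured, median -1.68, or 0.29 with no filter on dim probes). Nearly all of that sum was Hemgn (0.02), whereas Gata1 and Epor stood at -3.86 and -3.39. Stromal markers summed to 5.04 on the NYT array and 15.5 on the control array (4 lower and 1 higher of 5, median -2.70).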

How the data were processed

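RNA of 2 cultures was hybridised to 1-colour Agilent mouse arrays. Spot intensity was deposited by the authors as scanner output, written by version 10.7.1.1 of Agilent's Feature Extraction software per the file headers (9.5.1.1 per the submitters' processing notes), detrended, with surrogate values near background and no scaling between arrays. A value table deposited by the authors, also intensity, had equal quantiles on both arrays and was an alternative. After removal of outlier spots, log2 intensity was averaged over a probe's spots and the array's 75th percentile was subtracted (Python 3.11.15, R 4.3.3, limma 3.58.1). Probes were named by RefSeq accession, then symbol, then synonym (GRCm38.p6, names only). Phf11d was listed as D14Ertd668e. A probe annotated Phf11 was left out, since its accession is that of Phf11a. Probe positions are mm9.

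For each gene the brightest of the probes that were well above background on both arrays (over 50% of spots) was used. A gene detected on 1 array got a bound, in which the dim side took the lowest detected signal of its array, or the probe's own signal if that was higher. The number of arrays, 1 a group, allowed no test and limits the precision. Genes were counted past 2-fold, a step tested on simulated arrays with planted changes and small spot-like noise. That test checks the counting alone and covers no variation between cultures, hybridisations or scalings. All 36 genes were named. From other lists, up to 3 measured genes with the largest difference and those with a bound of at least 2-fold were named, except genes not reported here. Ifnar1, Ifnar2, Ifngr1, Irf9, Ifnb1, Jak2 and the single marker genes given values were added after their values were seen. The genes and lists were chosen with earlier results of these data known.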

Additional observations from a re-analysis of the deposited data

How the results depend on the processing

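No paired analysis was possible because the NYT and control groups held a single array each, which also left no array to omit and no test. All settings were planned, with quantile normalization, median scaling, normexp background correction (offset 50), the table of values the authors deposited, another detection flag and the choice of probe among them. The 34 measured genes had a median between -1.82 and -0.63, the lowest with spike-in scaling (-1.82) and without scaling (-1.66), which shift every gene alike. Those settings placed 27 and 27 of the set at least 2-fold lower. Among all genes, 7485 were lower and 166 higher with spike-in scaling, and 6190 and 211 without scaling, against 1868 and 1908 in the values reported. Loess left 944 higher, the other detection flag gave 3577 higher, and with no filter on dim probes 3414 were lower and 4755 higher, since more genes entered. At 3-fold 1167 were lower and 507 higher, and 9 of the set were lower. With the mean over probes or the dimmest measured probe, 1 of the set was at least 2-fold higher, Slfn5 in both cases. Under 11 alternatives, none of the genes of the set past 2-fold changed sign. Of 374 values of all the measured genes of the set under those alternatives, 176 moved by more than a limit set by spot noise and 198 did not. The dim NYT signals of Slfn1, Slfn4, Ifi44, Mx1 and Mx2 limit what can be said of the size of their differences. With normexp background correction Ifi44 moved from -2.94 to -1.95 and Mx1 from -2.37 to -1.87. Apart from the shifts and filters named, the cause of a change was not tested.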
